A study of Mus musculus with 18 samples.

Results

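Cytochrome c oxidase, complex IV of the respiratory chain, contains several subunits that mammals encode by more than 1 nuclear gene, and the genes of such a set differ in the tissues that use them. The 9 genes described here are the isoform genes of 4 of these subunits and a related factor, chosen by name: Cox4i1 and Cox4i2 (subunit IV), Cox6a1 and Cox6a2 (subunit VIa), Cox7a1, Cox7a2 and the related Cox7a2l (subunit VIIa family), and Cox8a and Cox8b (subunit VIII). They are 9 of the 41388 features listed, and all 9 passed the low-count filter in every fit. Total RNA of 2 mouse muscles was sequenced after ribosomal RNA depletion: the gastrocnemius, a mainly fast-fibre calf muscle, and the soleus, which holds more slow oxidative fibres. The mice were 12 weeks old, ate standard chow and had fasted for 4 h. All of them carried a floxed allele of Mbtps1, the gene of Site-1 Protease (S1P), a Golgi enzyme that releases membrane-bound transcription factors. Controls are labelled floxed only. Mice labelled knockout also carried HSACre, a recombinase driven by the skeletal actin promoter and therefore active in muscle fibres rather than in vessels, nerve or connective tissue. There were 5 control and 4 knockout libraries of each muscle by their titles, while the series text gives 4 per group. The labels do not say that each library came from its own mouse, so p-values measure the spread between these samples. Nor do they say whether both muscles came from the same mice: the titles list the genotypes in the same order in each muscle, but no label ties a library of one muscle to a library of the other, and the libraries were treated as independent. No library carried Cre without the floxed allele, so loss of S1P and an effect of the Cre allele cannot be told apart.

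Complex IV passes electrons from cytochrome c to oxygen and pumps protons across the inner mitochondrial membrane. Its catalytic core is made in the mitochondrion, and the small nuclear-encoded subunits around the core tune its activity, its assembly and its contacts with other complexes. Heart and skeletal muscle replace the widely expressed forms of subunits VIa, VIIa and VIII (Cox6a1, Cox7a2, Cox8a, often called liver forms) by muscle forms (Cox6a2, Cox7a1, Cox8b) as they mature. Cox4i1 is the general form of subunit IV, and Cox4i2 is best known from lung, vascular cells and oxygen-sensing cells. Cox7a2l, also called SCAF1, joins complex IV to complex III in respiratory supercomplexes.

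The 3 muscle-form genes all lie on chromosome 7 of GRCm38. Cox7a1 (ENSMUSG00000074218) spans 30184171 to 30186028 on the plus strand. Cox6a2 (ENSMUSG00000030785) spans 128205436 to 128206366 and Cox8b (ENSMUSG00000025488) 140898943 to 140900446, both on the minus strand. Their general counterparts are dispersed: Cox6a1 (ENSMUSG00000041697) on chromosome 5, 115345642 to 115348981; Cox7a2 (ENSMUSG00000032330) on chromosome 9, 79755241 to 79759853; and Cox8a (ENSMUSG00000035885) on chromosome 19, 7215158 to 7217616, all on the minus strand. Cox4i1 (ENSMUSG00000031818) lies on chromosome 8, 120668222 to 120674207, plus strand, and Cox4i2 (ENSMUSG00000009876) on chromosome 2, 152754173 to 152765037, plus strand. Cox7a2l (ENSMUSG00000024248) lies on chromosome 17, 83501919 to 83514333, minus strand. Counts are over annotated exons, of which the members have between 2 (Cox6a1, Cox8a and Cox8b) and 6 (Cox4i1).

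Genes that overlap or resemble 4 members were listed with counts of their own, all far lower. Cox4i1 overlaps 154 exonic bases of Emc8 on the opposite strand, whose mean count was 3.51% of that of Cox4i1. Cox6a2 overlaps 69 bases of Itgad on the opposite strand (0.22%). Processed pseudogenes resemble Cox7a2l (Gm6969, 98.0% identity over 342 bases, 2.18% of its mean count) and Cox7a2 (Gm13433, 94.5% identity over 109 bases, 0.34%). A pseudogene similar to Cox6a1, AC148174.2 (92.9% identity over 496 bases), was not a listed feature. Whether the counting used strand is not given in these sources, so reads of the opposite-strand pairs cannot be told apart, and reads shared with a pseudogene may have been dropped or assigned to it.

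Promoter sequences from RefSeq (GRCm38.p6) were at hand for 6 of the 9 members: Cox6a1, Cox7a1, Cox7a2, Cox7a2l, Cox8a and Cox8b. The stretches of the subunit VIII and VIIa pairs are shown because the balance within these pairs differed between the muscles. Each runs 5′ to 3′ on the gene's own strand from 120 bases before the RefSeq start to 30 bases after it, and capitals mark matches to TATAAA, to CAGCTG, an E-box of the kind bound by MyoD family factors, or to CTTCCGG, a core bound by ETS factors. The stretches are chr7:140900417-140900566 (minus) for Cox8b, chr19:7217587-7217736 (minus) for Cox8a, chr7:30184051-30184200 (plus) for Cox7a1 and chr9:79759824-79759973 (minus) for Cox7a2.
Cox8b: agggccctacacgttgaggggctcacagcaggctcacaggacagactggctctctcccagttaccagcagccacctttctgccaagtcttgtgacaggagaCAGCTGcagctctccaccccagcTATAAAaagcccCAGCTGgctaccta
Cox8a: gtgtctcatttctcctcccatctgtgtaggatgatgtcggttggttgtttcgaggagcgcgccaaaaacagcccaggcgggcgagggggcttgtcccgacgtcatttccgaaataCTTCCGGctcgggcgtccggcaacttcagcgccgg
Cox7a1: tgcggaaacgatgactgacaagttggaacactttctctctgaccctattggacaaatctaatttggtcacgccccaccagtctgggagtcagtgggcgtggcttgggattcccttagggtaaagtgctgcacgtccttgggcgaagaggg
Cox7a2: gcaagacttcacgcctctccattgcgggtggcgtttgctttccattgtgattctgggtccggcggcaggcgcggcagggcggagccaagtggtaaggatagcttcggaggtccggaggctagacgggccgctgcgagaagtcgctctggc

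The 2 subunit VIII promoters differ in their letters. In the full window of 300 bases, Cox8b held TATAAA and a pair of CAGCTG matches and only 2 CG dinucleotides, while Cox8a held 2 CTTCCGG matches and 19 CG dinucleotides. Counted from the RefSeq start, TATAAA of Cox8b began at position 5 and its CAGCTG matches at -19 and 17. The CTTCCGG matches of Cox8a began at -5 and 33. Matches at positive positions lie after the annotated start, and whether any match acts was not tested. Cox7a1 held 7 CG dinucleotides and Cox7a2 held 20, with no match to any of the 3 motifs in either window. The median over all promoters of the table was 7 CG dinucleotides. Cox6a1 held 32 and 1 CTTCCGG match, and Cox7a2l held 19 and no match. Of the 32851 promoters in the table, read on both strands, 13.6% held TATAAA, 16.3% CAGCTG and 8.9% CTTCCGG, and no match shown overlaps another. The motifs were chosen after the sequences had been read, so the matches are descriptions.

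The libraries held 39.0 to 78.2 M counts, of which 7.4 to 12.66% fell on the mitochondrial chromosome. The fibre markers differed as the muscle labels say: Myh7, the slow myosin heavy chain, averaged 453 CPM (read counts on a common library scale) in gastrocnemius controls and 9960 CPM in soleus controls, and Myh4, the fastest one, averaged 83179 and 1948 CPM. Mbtps1 itself was no lower where the label says knockout: it ran from 29.6 to 34.9 CPM in gastrocnemius controls and from 34.7 to 42.8 CPM in the knockouts, and from 30.5 to 34.4 and from 31 to 36.3 CPM in the soleus. Its log2 fold change was 0.25 (edgeR adjusted p = 0.0945) in the gastrocnemius and 0.10 (edgeR adjusted p = 0.754) in the soleus. Counts over the whole gene do not check a deletion of part of it, so the labels were used as they stand. Titin (Ttn) took 12.08% of all counts in gastrocnemius control 3, 12.56% in knockout 2 and 11.27% in knockout 6, against 6.76 to 9.19% in the other 6 gastrocnemius libraries, and values without these 3 libraries are given where they change a call.

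Between the muscles of control mice, all 9 genes had a higher estimate in the soleus and 5 of them rose past the threshold: Cox8a, Cox7a1, Cox6a1, Cox8b and Cox4i1 (edgeR quasi-likelihood test, Benjamini-Hochberg adjusted p under 0.05 over all tested genes). In the same comparison 49.3% of all tested genes were called and 27.4% were called higher. In the mice labelled knockout 4 of the 9 rose in the soleus, Cox7a1, Cox8a, Cox8b and Cox4i1, where 37.8% of all genes were called and 19.2% were called higher. Knockout against control called 0 of the 9 in the gastrocnemius, where 3.78% of all genes were called, and 0 of the 9 in the soleus, where 0.0553% were called. DESeq2 and limma voom also called 0 of the 9 in both muscles. In each muscle 1 of the 9, Cox6a2, had an unadjusted edgeR p under 0.05. So did 3057 of 16393 tested genes in the gastrocnemius and 1481 of 18087 in the soleus. The difference of the knockout effects between the muscles was called for 0 of the 9 (0.0703% of all genes). At an unadjusted p under 0.05 there were 0 of the 9, against 999 of 18494 tested genes.

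Levels of different genes were compared as CPM per kilobase of listed exons. In gastrocnemius controls the muscle forms stood at the top: Cox6a2 at 1185 CPM per kilobase, Cox8b at 830 and Cox7a1 at 435. Cox4i1 followed at 178, then Cox7a2 at 83.7, Cox7a2l at 55.2, Cox8a at 48.3, Cox6a1 at 32.9 and Cox4i2 at 1.76 CPM per kilobase. On these listed lengths each gene's libraries lay wholly above those of the next gene in this order, except that Cox7a2l and Cox8a overlapped. The same first 5 ranks held in the other 3 groups. In soleus controls Cox8a stood above Cox7a2l, but its range overlapped those of Cox7a2 and Cox7a2l, and in the soleus libraries labelled knockout Cox6a2 also overlapped Cox8b, and Cox8b overlapped Cox7a1. The listed length of Cox4i1, 1550 bases, is 2.08 times that of its principal transcript. On the latter length its level was 370 CPM per kilobase in gastrocnemius controls, against 402 for Cox7a1 on its own principal transcript. The wide gap between Cox7a1 and Cox4i1 in that group thus depends on the length used. Whether their libraries stay apart on principal transcript lengths was not checked. For the other members the listed length differed from the principal transcript by at most 1.23 times.

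**Figure D1:**
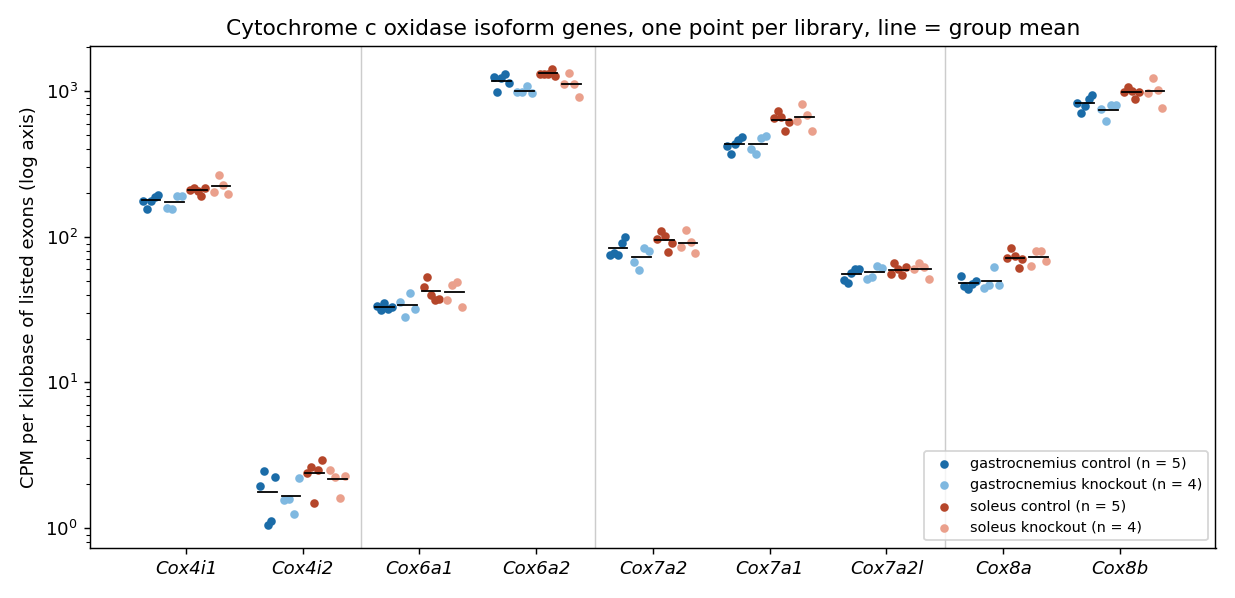
Level of each of the 9 genes in CPM per kilobase of listed exons (log axis), 1 point per library in the 4 groups of muscle and genotype, with a line at each group mean. Cox6a2, Cox8b and Cox7a1 lie at the top and Cox4i2 lies lowest in every group.

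The plot of levels by gene shows how far apart the most and least abundant members lie. In the VIa, VIIa and VIII pairs the muscle form exceeded its general counterpart in all 18 libraries.

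Subunit VIa has been linked to the regulation of the enzyme by ATP and ADP. Its muscle form Cox6a2 was the most abundant member. In gastrocnemius controls it measured 824, 651, 811, 864 and 747 CPM, and in the gastrocnemius libraries labelled knockout 650, 653, 721 and 636 CPM. Control 3, one of the libraries with a high Ttn share, lay among the knockout values and the other 4 controls lay above all of them, so the groups overlapped through that library. The log2 fold change was -0.23 (SE 0.08, edgeR adjusted p = 0.136). Over the 9 fits with 1 library left out it ran from -0.28 to -0.2, with edgeR adjusted p from 0.0379 to 0.285. Only the fit without control 3 gave a call (-0.28, edgeR adjusted p = 0.0379). The fit without all 3 libraries of high Ttn share gave none. In soleus controls Cox6a2 measured 864, 863, 864, 941 and 841 CPM, and in the soleus libraries labelled knockout 735, 872, 741 and 598 CPM. Knockout 39 lay inside the control range and the other 3 below it. The log2 fold change was -0.24 (SE 0.09, edgeR adjusted p = 0.516). The estimates in the 2 muscles were thus both 0.85-fold, from separate libraries that may or may not be of the same mice, and neither passed the threshold across all genes. Between the muscles of controls the log2 fold change of Cox6a2 was 0.17 (SE 0.09, edgeR adjusted p = 0.117, and 0.0496 with upper quartile scaling). In the mice labelled knockout it was 0.15 (edgeR adjusted p = 0.244, and 0.0452 without soleus knockout 42). With total-count scaling Cox6a2 was called higher in the soleus in both genotypes. The values were 0.43 (edgeR adjusted p = 7.4e-05) in controls and 0.37 (edgeR adjusted p = 0.00143) in the mice labelled knockout.

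Cox6a1, the general form, measured 23.5, 21.9, 24.6, 22.5 and 23.1 CPM in gastrocnemius controls and 31.6, 37.4, 28.2, 26 and 26.4 CPM in soleus controls. All soleus controls lay above all gastrocnemius controls. It rose by 0.37 on the log2 scale in the soleus (SE 0.12, edgeR adjusted p = 0.0126), and without the 3 libraries of high Ttn share the adjusted p was 0.0513. In the mice labelled knockout it measured 25, 19.7, 28.9 and 22.5 CPM in the gastrocnemius and 26.1, 33, 34.5 and 23.1 CPM in the soleus, with overlapping ranges. The log2 fold change was 0.28 (edgeR adjusted p = 0.1, with 0.035 without gastrocnemius knockout 7 and 0.0275 without soleus knockout 42). With total-count scaling it was 0.51 (edgeR adjusted p = 0.00527). Knockout against control gave 0.06 in the gastrocnemius and -0.03 in the soleus.

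Subunit VIIa sits where complex IV meets other complexes, and its muscle form Cox7a1 separated the muscles most clearly together with Cox8a. In gastrocnemius controls Cox7a1 measured 154, 135, 158, 168 and 176 CPM, and in soleus controls 240, 265, 241, 193 and 223 CPM. Every soleus control lay above every gastrocnemius control. Cox7a1 rose 1.47-fold in the soleus (log2 fold change 0.56, SE 0.11, edgeR adjusted p = 0.000218). The libraries labelled knockout showed the same order, with 147, 134, 173 and 179 CPM in the gastrocnemius and 228, 296, 249 and 195 CPM in the soleus, again without overlap (1.53-fold, log2 fold change 0.61, edgeR adjusted p = 0.000388). Within a muscle the genotypes overlapped: the group means were 158 and 158 CPM in the gastrocnemius and 233 and 242 CPM in the soleus. The 95% interval of the knockout effect on Cox7a1, from the edgeR standard error, was -0.18 to 0.18 on the log2 scale in the gastrocnemius and -0.16 to 0.29 in the soleus.

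Groups without overlap in the muscle comparison of controls were seen for 3 members, Cox6a1, Cox7a1 and Cox8a, all higher in the soleus; 36.7% of all tested genes had such groups and 19.7% had them with the soleus higher. In the mice labelled knockout there were also 3, Cox4i1, Cox7a1 and Cox8a, against 32.4% of all genes (16.5% with the soleus higher). In the knockout comparisons there were 0 among the members in either muscle, against 8.41% of genes in the gastrocnemius and 2.55% in the soleus.

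Cox7a2, the general form of VIIa, measured 56.4, 58.3, 57, 68.6 and 75.3 CPM in gastrocnemius controls and 72.5, 83.3, 76, 59 and 68.6 CPM in soleus controls. The groups overlapped broadly (log2 fold change 0.19, SE 0.12, edgeR adjusted p = 0.195; 0.45 and 0.0042 with total-count scaling). In the libraries labelled knockout it measured 50.4, 44.7, 63.2 and 60.6 CPM in the gastrocnemius and 63.7, 84.3, 69.5 and 58.1 CPM in the soleus. Knockouts 2 and 6, the 2 gastrocnemius knockouts with a high Ttn share, were the lowest. In this genotype the muscles also overlapped (log2 fold change 0.33, SE 0.13, edgeR adjusted p = 0.0535). That difference passed the threshold with total-count scaling (0.56, adjusted p = 0.00297) or upper quartile scaling (0.0325), and without gastrocnemius knockout 7 (0.0371) or 9 (0.0484) or soleus knockout 42 (0.0274). The knockout effect on Cox7a2 was -0.20 (SE 0.11, edgeR adjusted p = 0.369) in the gastrocnemius and -0.06 (edgeR adjusted p = 0.949) in the soleus. Cox7a2l, the supercomplex factor, varied least between groups: it averaged 63.3 ± 6.34 CPM (SD, n = 5) in gastrocnemius controls, 65.7 ± 6.44 (n = 4) in gastrocnemius knockouts, 68.3 ± 5.17 (n = 5) in soleus controls and 68.6 ± 7.29 (n = 4) in soleus knockouts. Cox7a2l was called in none of the 5 edgeR comparisons; its log2 fold changes lay between -0.05 and 0.11, with unadjusted p values from 0.194 to 0.885. With total-count scaling it was called higher in the soleus in both genotypes (0.38, edgeR adjusted p = 0.000642 in controls; 0.29, adjusted p = 0.0157 in the mice labelled knockout).

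Subunit VIII is among the smallest subunits of the enzyme. Its general form Cox8a measured 29.5, 25.2, 24, 25.9 and 27 CPM in gastrocnemius controls and 38.7, 45.5, 40.1, 33.4 and 38.6 CPM in soleus controls. All soleus controls lay above all gastrocnemius controls. Cox8a rose 1.49-fold in the soleus (log2 fold change 0.58, SE 0.10, edgeR adjusted p = 3.78e-05), the largest change in a member in that comparison. In the libraries labelled knockout it measured 24.3, 25.5, 33.7 and 25.6 CPM in the gastrocnemius and 34.5, 43.9, 43.8 and 37 CPM in the soleus. These groups did not overlap either, knockout 7 of the gastrocnemius coming closest to the soleus values (1.46-fold, log2 fold change 0.55, edgeR adjusted p = 0.000364). Cox8a and Cox7a1 were called higher in the soleus in both genotypes under every alternative fit and with every single library left out.

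The muscle form Cox8b measured 300, 256, 286, 320 and 339 CPM in gastrocnemius controls and 358, 385, 361, 323 and 357 CPM in soleus controls. Gastrocnemius control 8 lay above soleus control 38, so the groups overlapped. Cox8b rose by 0.25 on the log2 scale (SE 0.10, edgeR adjusted p = 0.0473), a call that was lost with DESeq2 (adjusted p = 0.113) and with no low-count filter (0.061). Without the 3 libraries of high Ttn share the change was 0.15 (adjusted p = 0.213). The call was also lost when any 1 of 8 of the 10 control libraries, all but gastrocnemius control 8 and soleus control 38, was left out (adjusted p 0.0502 to 0.123). In the mice labelled knockout it measured 274, 225, 292 and 290 CPM in the gastrocnemius and 353, 444, 370 and 278 CPM in the soleus (log2 fold change 0.42, edgeR adjusted p = 0.00615; 0.0687 without the libraries of high Ttn share). Soleus knockout 42 was the only soleus library of this genotype inside the gastrocnemius range. The knockout effect on Cox8b was -0.15 (SE 0.09, edgeR adjusted p = 0.424) in the gastrocnemius and 0.02 (edgeR adjusted p = 0.976) in the soleus.

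Subunit IV is the largest nuclear-encoded subunit and has been linked to inhibition of the enzyme by ATP. Cox4i1, its general form, measured 271, 240, 275, 290 and 302 CPM in gastrocnemius controls and 325, 338, 320, 298 and 334 CPM in soleus controls. Soleus control 38 lay just below gastrocnemius control 8, and the other soleus controls lay above the gastrocnemius range. It rose by 0.23 on the log2 scale (SE 0.09, edgeR adjusted p = 0.0307), but not with DESeq2 (adjusted p = 0.0904), without the libraries of high Ttn share (0.156), or when gastrocnemius control 1, 3 or 4 or soleus control 36 or 41 was left out (0.0529 to 0.086). In the mice labelled knockout it measured 244, 240, 298 and 297 CPM in the gastrocnemius and 316, 413, 350 and 307 CPM in the soleus, without overlap (log2 fold change 0.36, edgeR adjusted p = 0.0046; 0.101 without the libraries of high Ttn share). The knockout effect was -0.03 in the gastrocnemius and 0.11 in the soleus, with overlapping libraries in both.

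Cox4i2 was the rarest member, with 28 to 149 counts in a library. Its groups averaged 1.39 ± 0.508 CPM (SD, n = 5) in gastrocnemius controls, 1.3 ± 0.321 (n = 4) in the gastrocnemius knockouts, 1.88 ± 0.433 (n = 5) in soleus controls and 1.7 ± 0.307 (n = 4) in the soleus knockouts. Its libraries overlapped in all comparisons, and its standard errors were the widest of the members: the log2 fold change between muscles of controls was 0.43 (SE 0.24, edgeR adjusted p = 0.152; 0.69 and 0.0225 with total-count scaling) and the knockout effect was -0.09 (SE 0.29) in the gastrocnemius and -0.13 (SE 0.21) in the soleus. The summed level of 10 pericyte and smooth muscle markers, cells in which Cox4i2 is known to be used, ran from 849 to 1015 CPM in gastrocnemius controls and from 914 to 1007 CPM in soleus controls. It ran from 873 to 982 and from 845 to 980 CPM in the corresponding libraries labelled knockout, and none of the 10 markers was at 0 in any group. Singly, 4 of the 10 rose in soleus controls (Higd1b 1.83-fold, Kcnj8 and Cspg4 1.57-fold, Rgs5 1.32-fold) and Abcc9 fell (0.72-fold). The sum hides these moves, because its most abundant markers went in opposite directions. Between gastrocnemius and soleus controls Abcc9 averaged 368 and 265 CPM, and Rgs5 277 and 368 CPM. The part of these cells in the Cox4i2 level was not tested, and in whole muscle fewer cells of a type and less RNA per cell cannot be told apart.

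**Figure D2:**
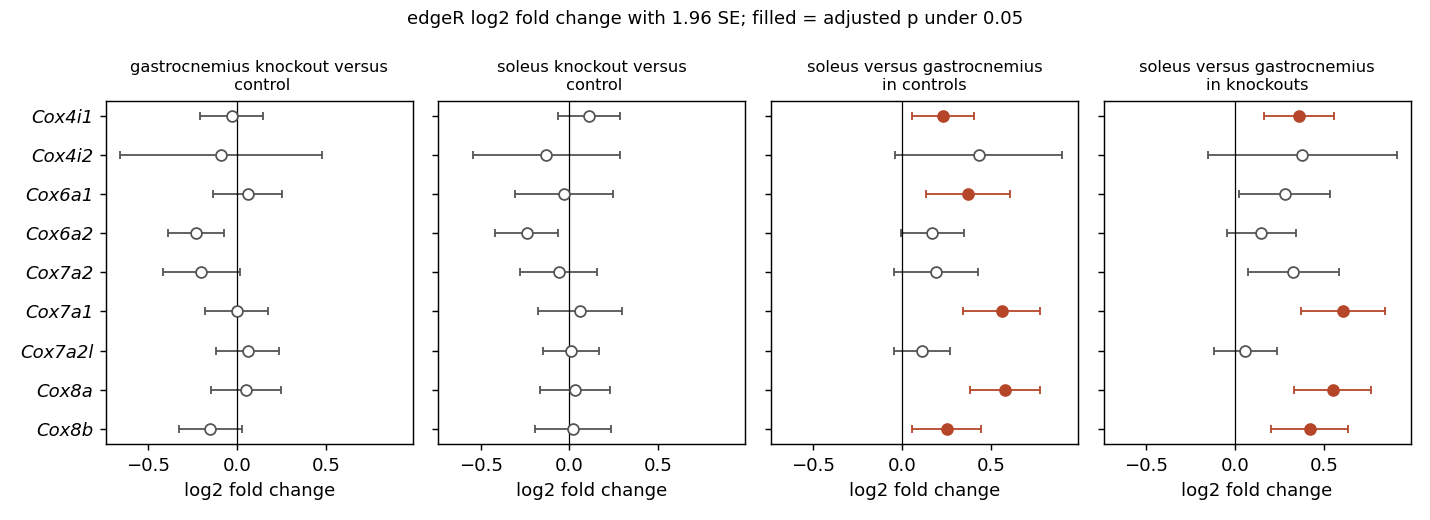
Log2 fold changes of the 9 genes with 95% intervals from the edgeR fits, for knockout against control in each muscle and for soleus against gastrocnemius in each genotype; filled points have an adjusted p under 0.05 and the vertical line marks 0. Knockout estimates lie between -0.24 and 0.11, and the muscle estimates are all above 0.

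The plot of fold changes with intervals shows both comparisons on 1 scale. The median log2 fold change of the 9 genes was -0.03 for knockout against control in the gastrocnemius and 0.01 in the soleus, and over all tested genes it was 0.02 and 0.00. Between the muscles the median of the members was 0.25 in controls and 0.36 in the mice labelled knockout, against 0.08 and 0.03 over all tested genes. Scaling by total counts moved the median of all genes by 0.26 in controls and by 0.23 in the mice labelled knockout. The members lay 0.03 to 0.49 above the all-gene median of the muscle comparison in controls, a distance that a scaling of libraries leaves almost as it is. With total counts, all 9 members were called higher in soleus controls and 8 of 9 in the mice labelled knockout. With scaling by total counts, 8386 genes were called higher and 2122 lower in soleus controls, against 5074 and 4048 with TMM scaling, and in the mice labelled knockout 6339 and 1751 against 3560 and 3427. In the gastrocnemius knockout comparison the split was 347 higher and 163 lower with total counts, against 290 and 329.

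The muscle form's share of a pair was read within each library, where library scaling cancels. Per kilobase, Cox6a2 made up 97.3% of the VIa pair in gastrocnemius controls and 96.9% in soleus controls, Cox8b 94.5% and 93.2% of the VIII pair, and Cox7a1 83.9% and 87% of the Cox7a1 and Cox7a2 pair. Cox4i2 made up 0.993% and 1.13% of the subunit IV pair, or 0.52% and 0.593% with principal transcript lengths. Of the 3 pairs with a muscle form, the VIIa pair was the most mixed in each of the 4 groups.

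The balance of the VIIa and VIII pairs moved in opposite directions between the muscles. The log2 ratio of Cox7a1 to Cox7a2 was 2.5, 2.26, 2.52, 2.34 and 2.28 in gastrocnemius controls and 2.78, 2.72, 2.72, 2.76 and 2.75 in soleus controls. Every soleus control lay above every gastrocnemius control, and the means differed by 0.37 (1.29-fold; exact two-sided permutation test, p = 0.00794, the lowest possible with 252 splits; adjusted p = 0.0317 over 12 ratio tests). The log2 ratio of Cox8b to Cox8a was 3.94, 3.94, 4.16, 4.22 and 4.24 in gastrocnemius controls and 3.8, 3.67, 3.76, 3.86 and 3.8 in soleus controls. Here every soleus control lay below every gastrocnemius control, by -0.32 on average (0.80-fold; exact permutation p = 0.00794, adjusted p = 0.0317). Both calls were lost when any 1 of the 5 soleus controls was left out: the differences stayed at 0.36 to 0.37 and at -0.34 to -0.29, and the adjusted p of these exact tests rose to 0.0952 and to between 0.111 and 0.114. In these libraries the muscle form took a larger share of subunit VIIa transcripts in soleus controls and a smaller share of subunit VIII transcripts. The ratios of Cox6a2 to Cox6a1 (difference -0.19, exact permutation p = 0.183) and of Cox4i2 to Cox4i1 (0.26, exact permutation p = 0.413) overlapped between the muscles.

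**Figure D3:**
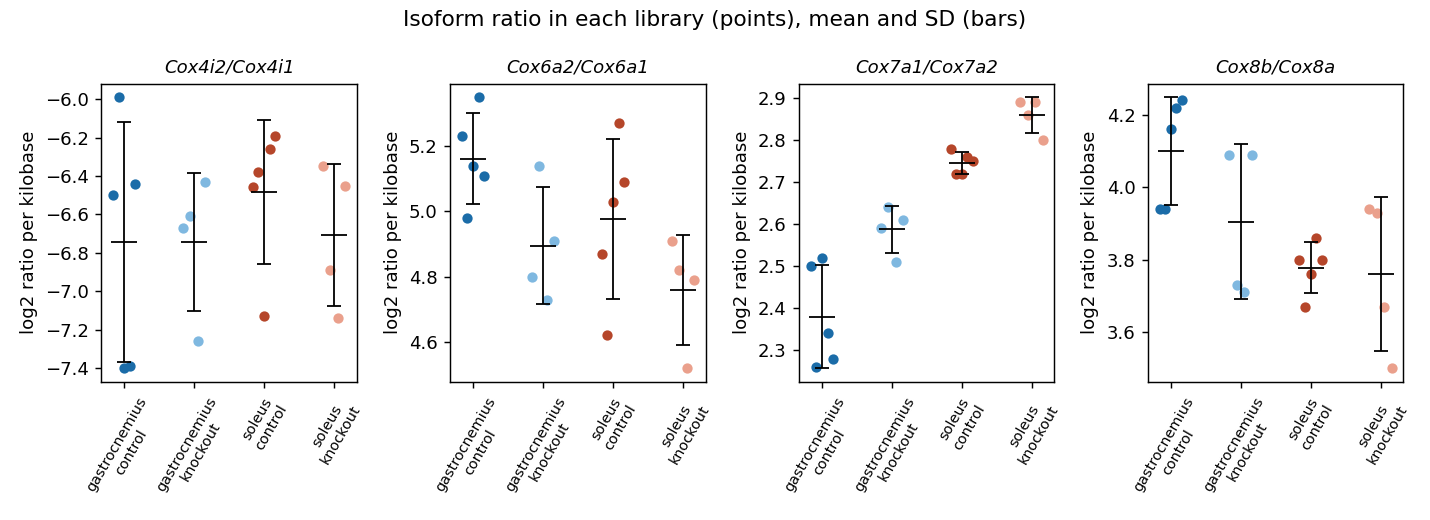
Log2 ratio of the muscle form to the general form (and of Cox4i2 to Cox4i1) per kilobase, 1 point per library in the 4 groups, with the mean and SD of each group. The Cox7a1 to Cox7a2 ratio lies at 2.26 to 2.52 in gastrocnemius controls and at 2.8 to 2.89 in the soleus libraries labelled knockout, and the Cox8b to Cox8a ratio is lower in soleus than in gastrocnemius controls.

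The plot of isoform ratios by library shows the Cox7a1 to Cox7a2 ratio as the one with the narrowest spread, an SD of 0.03 in soleus controls. It was also the only ratio that passed a knockout comparison. In the soleus libraries labelled knockout it was 2.89, 2.86, 2.89 and 2.8, all above the controls, whose highest value was 2.78. The difference was 0.11 (1.08-fold; exact two-sided permutation test over 126 splits, p = 0.00794, the smallest possible; adjusted p = 0.0317). In the gastrocnemius the ratio was 2.59, 2.64, 2.51 and 2.61 in the libraries labelled knockout. Knockout 7 lay just under the highest control and the other 3 above all controls (difference 0.21, exact permutation p = 0.0397, adjusted p = 0.119). Whether the difference varied between the muscles was not tested. Neither gene of the pair was called on its own in either knockout comparison. With 1 library left out, the soleus difference stayed between 0.10 and 0.14 and its adjusted p rose to between 0.0714 and 0.114, since fewer libraries give fewer splits.

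The other ratios did not pass a knockout comparison. The ratio of Cox6a2 to Cox6a1 was 5.23, 4.98, 5.14, 5.35 and 5.11 on the log2 scale in gastrocnemius controls and 4.8, 5.14, 4.73 and 4.91 in the libraries labelled knockout. Knockout 6 lay inside the control range and the other 3 below it (difference -0.27, exact permutation p = 0.0556, adjusted p = 0.133). In the soleus the difference was -0.22 (exact permutation p = 0.19). The ratio of Cox8b to Cox8a differed by -0.19 in the gastrocnemius (exact permutation p = 0.167) and by -0.02 in the soleus (exact permutation p = 0.865). Cox7a2l stood at 0.663 of the level of Cox7a2 per kilobase in gastrocnemius controls and at 0.629 in soleus controls, with 0.796 and 0.66 in the libraries labelled knockout; these ratios were not tested.

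The rest of the complex IV genes give the setting. Of 12 tested genes among 14 other subunits, 5 rose in soleus controls and 0 fell. They were Cox6b2 (1.5, edgeR adjusted p = 0.0012, at only 0.174 and 0.497 CPM), Cox6c (0.39), Cox7b (0.35), the mitochondrial-encoded catalytic subunit mt-Co1 (0.32) and Cox5b (0.29), and the median of the 12 was 0.18. The other mitochondrial-encoded subunits had estimates below 0 and were not called: mt-Co2 -0.21 (edgeR adjusted p = 0.107) and mt-Co3 -0.16 (edgeR adjusted p = 0.164). In gastrocnemius controls they averaged only 241 and 250 CPM, against 23655 CPM for mt-Co1. Knockout against control called 0 of the 12 in either muscle with edgeR. At an unadjusted p under 0.05 there were 2 in the gastrocnemius and 0 in the soleus, against 3057 of 16393 and 1481 of 18087 tested genes. The knockout estimates lay below 0 for 11 of the 12 in the gastrocnemius and for 9 in the soleus. Their median log2 fold changes were -0.11 and -0.04, against 0.02 and 0.00 over all tested genes. Cycs, the electron donor cytochrome c, rose by 0.21 in soleus controls (edgeR adjusted p = 0.0171) and was not called in a knockout comparison. Cox8c and Cox7b2, the testis forms of subunits VIII and VIIb, had 0 counts in every library.

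Assembly factors, which insert the metal centres and join the subunits, changed in both directions. Of 27 tested assembly genes, 5 rose and 12 fell in soleus controls with TMM scaling, and 5 of the 12 falls were smaller than the shift of 0.26 that total counts bring. The largest changes were in Cox19 (1.16) and Cox17 (0.99), which serve copper delivery, Lrpprc (0.61), which stabilises mitochondrial mRNAs, and Cox11 (-0.51), which inserts copper into the catalytic subunit. Knockout against control called 0 of the 27 in either muscle with edgeR, with 6 at an unadjusted p under 0.05 in the gastrocnemius and 1 in the soleus. Over all tested genes 3057 of 16393 and 1481 of 18087 had such a p. Of 15 transcription factors and cofactors linked to these isoforms or to mitochondrial genes, 5 rose and 5 fell in soleus controls, and 1 of these falls was smaller than that shift. Among them were the coactivator Ppargc1a (1.18), the myogenic factors Myod1 (-1.29) and Myog (-1.06), and Cxxc5 (-1.04), which acts on Cox4i2. Myod1 was the only one called in a knockout comparison: it rose by 0.64 in the gastrocnemius (SE 0.12, edgeR adjusted p = 0.0105). In the soleus 0 of the 15 were called. At an unadjusted p under 0.05 there were 6 of the 15 in the gastrocnemius and 4 in the soleus, beside the same all-gene counts.

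**Figure D4:**
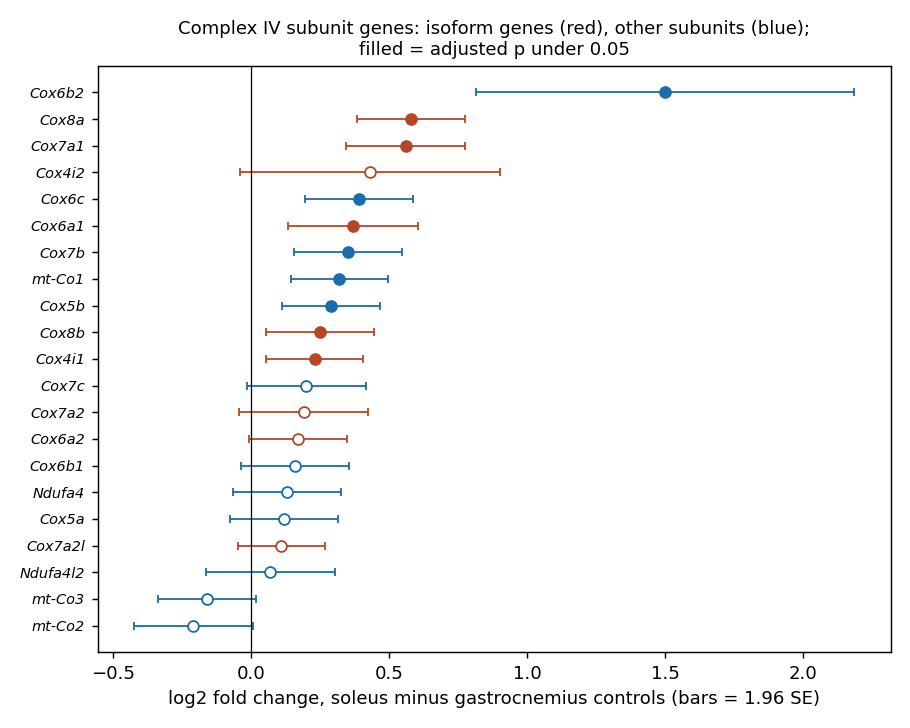
Log2 fold change (edgeR, bars are 95% intervals) of each tested complex IV subunit gene between soleus and gastrocnemius controls, with the 9 isoform genes in red, other subunits in blue and filled points for adjusted p under 0.05. In soleus controls 5 of 9 members and 5 of 12 other subunits were called higher and 0 lower.

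The plot of all subunit genes sets the members beside the rest of the complex. Fibre type markers moved with the muscle comparison: all 8 slow fibre markers rose and 7 of 8 fast fibre markers fell in soleus controls. The summed slow markers ran from 956 to 1479 CPM in gastrocnemius controls and from 20218 to 25053 CPM in soleus controls. The summed fast markers ran from 133688 to 158666 and from 20627 to 25866 CPM. The summed endothelial markers ran from 326 to 355 and from 435 to 478 CPM, and all 5 of them rose. Ttn took 14.26 to 15.06% of counts in soleus controls. The part of each in the members' differences was not tested. In the libraries labelled knockout the summed slow markers ran from 437 to 972 CPM in the gastrocnemius and from 13345 to 19576 CPM in the soleus, below the soleus controls. All 8 had estimates below 0 in both muscles, with a median log2 fold change of -0.75 in the gastrocnemius and -0.35 in the soleus. In the gastrocnemius 1 of 8 passed the threshold in edgeR and 5 had an unadjusted p under 0.05. In the soleus 0 of 8 passed it although all 8 had an unadjusted p under 0.05. Of all tested genes, 3057 of 16393 in the gastrocnemius and 1481 of 18087 in the soleus had such a p. The part of the slow markers in the Cox7a1 to Cox7a2 ratio was not tested.

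Brown fat, which also uses Cox7a1 and Cox8b, was looked for through its markers. Their summed level ran from 20.5 to 31.7 CPM in gastrocnemius controls and from 19.9 to 36.6 CPM in the libraries labelled knockout. It ran from 74.9 to 119 and from 53.5 to 127 CPM in the soleus. The defining marker Ucp1 averaged 0.143 CPM in gastrocnemius controls and 1.12 CPM in the libraries labelled knockout, where it rose (log2 fold change 2.91, edgeR adjusted p = 0.00732). In soleus controls Ucp1 averaged 0.00648 CPM (SD 0.0145) and fell, a call between levels near the floor, as the SD in gastrocnemius controls was 0.119 CPM. The other 4 markers rose: Cidea 7.48-fold, Ppara 3.71-fold, Elovl3 2.34-fold and Dio2 1.74-fold. Muscle fibres also express Ppara, and this gene made up most of the summed level in every group. It averaged 24.7 CPM in gastrocnemius controls, 20.3 CPM in gastrocnemius knockouts, 91.6 CPM in soleus controls and 75 CPM in soleus knockouts. The sum therefore mostly follows Ppara. The part of brown fat in the levels of Cox7a1 and Cox8b was not tested.

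Library-to-library variation within groups tied several members together. After each group's mean was removed, the Pearson correlation of log2 CPM over the 18 libraries was 0.825 to 0.934 for the 10 pairs among Cox4i1, Cox7a1, Cox7a2, Cox7a2l and Cox8b. The 8 pairs that include Cox4i2 had values from -0.424 to -0.043, and the remaining 18 pairs 0.318 to 0.73. Cox6a2, Cox6a1 and Cox8a thus followed the others less closely. All points share the same libraries and their scaling, and the first 5 genes were grouped after the values had been seen.

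The genes outside the set with the most similar pattern were ranked by the same correlation among genes with a mean log2 CPM of at least 3. For Cox7a1 they were Uqcr11 (0.97), Chchd2 (0.967) and Uqcrh (0.962), and for Cox7a2 Chchd2 (0.967), Cox6b1 (0.964) and Ndufa4 (0.957). For Cox4i1 they were Cyc1 (0.951), Mrpl57 (0.944) and Atp5g1 (0.936), and for Cox8b Ndufa3 (0.938), Atp5e (0.936) and Minos1 (0.936). For Cox7a2l the nearest were Eif3i (0.946), Nop10 (0.923) and Uqcrq (0.921), and for Cox6a2 Rfk (0.9), Mipep (0.898) and Cwc15 (0.892). For Cox6a1 they were Dctn3 (0.856), Usmg5 (0.853) and Actr2 (0.836), for Cox8a Adam17 (0.909), Actr2 (0.885) and Clns1a (0.879), and for Cox4i2 Wasl (0.824), Tjp1 (0.823) and 9530082P21Rik (0.812).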

How the data were processed

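Ribosomal-RNA-depleted total RNA of 18 muscle libraries was sequenced. For each library the deposited table gives read counts by Ensembl gene, with CPM and RPKM columns computed from them. The submitters' processing notes name STAR 2.5.1a, featureCounts 1.4.6-p5 (Subread), bcl2fastq and the build GRCm38. They give no annotation release, strand setting or rule for multi-mapped reads. The deposited CPM equalled the rescaled counts to within 4.9e-10 and the deposited RPKM the CPM per kilobase to within 4.7e-10, so only the counts were used. Of 41388 features, all Ensembl genes, 40254 took a symbol from GENCODE M21 of GRCm38.

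The main test was edgeR's robust quasi-likelihood F-test (version 4.0.16, R 4.3.3) after TMM scaling. Low counts were removed by filterByExpr (minimum count 10, minimum total 15). Adjustment was by Benjamini-Hochberg over all tested genes, with a threshold of 0.05. Knockout comparisons used the 9 libraries of 1 muscle, while the muscle comparisons and the difference of knockout effects used all 18 in 4 groups. Tested genes numbered 16393 for the gastrocnemius, 18087 for the soleus and 18494 for all libraries. The fits were also run on simulated counts in which few genes changed and the groups otherwise shared a common mean profile. That setting is unlike the muscle comparisons, so it cannot test how far their calls depend on scaling. Levels are CPM on TMM sizes of all 18 libraries. Isoform ratios per kilobase of listed exons were compared by exact two-sided permutation tests, adjusted over 12 tests. Similar transcripts were searched in GENCODE M21 with blastn 2.17.0 (at least 90% identity over 100 bases). Alternatives were DESeq2 1.42.0, limma 3.58.1 voom, other scalings, no filter, other sets of libraries in the fit, 0.5 reads added to both counts of a ratio, counts of similar or overlapping genes added, principal transcript lengths and each library left out; the last lengths and the fit without 3 libraries of high Ttn share were added after seeing the data. Named genes were all 9 members, from each complex IV list up to 4 called genes of largest change per comparison (Cox5b, mt-Co2 and mt-Co3, mentioned beside them, were added after their values were seen), and the 3 genes of most similar pattern per member. The members and lists were chosen with earlier results of these data known. No 2 libraries of a group were near sampling noise (at least 19.6 chi-square units per gene). The total counts of 39.0 to 78.2 M limit the precision of Cox4i2 most.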

Additional observations from a re-analysis of the deposited data

Results flagged for a closer look

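In 52 groups of 4 or 5 libraries (9 genes and 4 ratios in 4 groups), 3 held a value far from the rest by Dixon's 95% criterion, which chance meets in about 1 of 20 groups. Cox6a2 measured 941 CPM in soleus control 38, where the other 4 soleus controls lay between 841 and 864 CPM. Cox8a measured 33.7 CPM in gastrocnemius knockout 7, which had the lowest Ttn share of all libraries (6.76%), where the other 3 lay between 24.3 and 25.6 CPM. The Cox4i2 to Cox4i1 log2 ratio was -7.13 in soleus control 37, the library with the highest total count, and the other 4 soleus controls lay between -6.46 and -6.19.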

How the results depend on the processing

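No member's fold change or isoform ratio reversed a call under any alternative, and the higher soleus levels of Cox7a1 and Cox8a passed the threshold under all of them, with adjusted p values of at most 0.00117 and 0.000344 in controls. Members called higher in soleus controls numbered 3 with DESeq2 (Cox8b and Cox4i1 were lost), 9 with total counts and 2 without the 3 libraries of high Ttn share, against 5. All genes called higher there numbered 4887, 8386 and 4945, against 5074. In the mice labelled knockout the members numbered 8 with total counts and 2 without those 3 libraries, against 4. All genes called higher there numbered 6339 and 3543, against 3560. Tested genes numbered 19454 without those libraries and 18494 otherwise. Over all genes, DESeq2 called 1235 in the gastrocnemius knockout comparison (619 with edgeR), 166 in the soleus (10) and 52 for the difference of effects (13). Limma voom called 7 for that difference, and in the soleus knockout comparison no filter called 48 and the fit of all 18 libraries 28. With each library left out in turn, all genes called ranged from 206 to 1080 (gastrocnemius knockout; 206 without control 5, 1080 without knockout 2), 3 to 66 (soleus knockout, 66 without knockout 35), 8360 to 9213 and 5998 to 7108 (muscles, controls and knockouts) and 2 to 23 (difference of effects). Members called ranged from 0 to 1, stayed at 0, and ranged from 3 to 5 and from 4 to 7 (7 without soleus knockout 42), and stayed at 0. The ratio differences ranged from 0.34 to 0.40 (Cox7a1 to Cox7a2, muscles; adjusted p 0.0317 to 0.0952), from 0.10 to 0.14 (soleus knockout) and from -0.36 to -0.28 (Cox8b to Cox8a, muscles; adjusted p 0.0317 to 0.114). Leaving a library out also leaves the exact ratio tests fewer splits. The cause of the other moves was not tested. No paired analysis was possible because the groups share no replicate numbers; the genotypes come in the same order in the titles of both muscles, but no label says that the muscles are from the same mice. Strand, multi-mapped reads and the low counts of Cox4i2 limit these values, and group sizes limit the ratio tests.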
